A study of Mus musculus with 8 samples.

Results

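The genes described here are 9 components of the Hedgehog pathway, measured in mouse embryonic stem cells with or without β-catenin: the inhibitor genes Hhip, Ptch1 and Sufu, the signal transducer Smo, the co-receptors Gas1 and Boc, and the transcription factor genes Gli1, Gli2 and Gli3. They were taken by gene name from a table of 48440 genes, 1 row for each, and all 9 were among the 17739 genes with enough counts to be tested. Hhip was selected on its measured log2 fold change with CHIR99021 in parental cells, where it was much lower, and the other 8 were listed with it as parts of the same pathway. The values of that contrast are therefore given as a description without a test, and so are the other comparisons of Hhip that use parental libraries.

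The cells were of the 129/Ola background, grown in medium with serum on gelatin without feeder cells. There were 4 groups of 2 libraries: β-catenin knock-out cells (CTNNB1-/-) treated with 3 μM CHIR99021 (a small molecule that blocks GSK3 kinase), knock-out cells with the vehicle DMSO at 0.3 μl/ml, parental cells (CTNNB1+/+) with CHIR99021 at 3 μM, and parental cells with DMSO at 0.3 μl/ml. All were treated for 72 hours. The labels name a single knock-out line and a single parental line, so genotype and line cannot be told apart, and it is not stated that replicates came from different cultures. The p-values thus reflect variation among the libraries sequenced, some or all of which may be technical. Polyadenylated RNA was sequenced, with 23650572 to 27680649 estimated counts per library.

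In Hedgehog signalling a secreted ligand (Sonic, Indian or Desert hedgehog) binds the receptor Patched, which otherwise holds the membrane protein Smoothened inactive. Active Smoothened, working at the primary cilium, releases the Gli transcription factors from Sufu and from proteolytic processing into repressors. Gli1, Ptch1 and Hhip are themselves transcribed in response to Gli activity in many mouse tissues, so that their mRNA is commonly used as a readout of the pathway, and Patched and Hhip bind ligand and limit the signal. GSK3, the target of CHIR99021, is known both for marking β-catenin for destruction and for phosphorylating Gli proteins.

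The labels were checked first. Ctnnb1, which encodes β-catenin, lay between 7.98 and 10.7 CPM (a gene's counts per 1000000 of the scaled library size) in the 4 knock-out libraries and between 813 and 906 CPM in the 4 parental libraries. The 6 stem cell markers Pou5f1, Nanog, Sox2, Klf4, Esrrb and Zfp42 summed to 3528 to 3572 CPM in knock-out cells with CHIR99021, 3726 to 3888 in knock-out cells with DMSO, 3757 to 3791 in parental cells with CHIR99021 and 4052 to 4107 in parental cells with DMSO. Markers of other cell types summed to far less than the stem cell markers in every group, and the sums of all 4 such lists differed between groups. The 6 primitive endoderm markers summed to 23.6 to 25.7, 25.7 to 26.2, 11.7 to 13.3 and 20.6 to 21.1 CPM in knock-out cells with CHIR99021, knock-out cells with DMSO, parental cells with CHIR99021 and parental cells with DMSO. In the same order of groups the 6 neural progenitor markers, of which Neurog2 had no counts, summed to 20.5 to 22.9, 24.7 to 26.7, 14.97 to 15.5 and 28.2 to 28.7 CPM. The 6 primitive streak and mesoderm markers, mostly Eomes and T, summed to 2.86 to 3.13, 3.55 to 3.99, 42.7 to 44.5 and 3.31 to 3.44 CPM. The 6 fibroblast markers, mostly Thy1 and with Postn at 0 counts in all libraries, summed to 9.42 to 10.6, 8.45 to 9.23, 7.59 to 8.32 and 5.15 to 5.93 CPM. The part of such cells in the values below was not tested, and in bulk RNA fewer cells of a type and less RNA per cell cannot be told apart.

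Promoter sequence is given because Hhip, Ptch1 and Gli1 were all lower with CHIR99021 in parental cells, although with DMSO Hhip was lower and the other two were higher in knock-out than in parental cells. RefSeq (build GRCm38.p6) gave a window before the start for 7 of the 9 genes, not for Gli1 and Boc. The 250 bases before the start are shown for Hhip and Ptch1, the members with a window whose log2 fold changes with CHIR99021 in parental cells were the most negative, 5′ to 3′ on the gene's strand, with capitals marking the letters CCACCC, the core of the Gli motif.
Hhip, chr8:80058009-80058258, minus strand: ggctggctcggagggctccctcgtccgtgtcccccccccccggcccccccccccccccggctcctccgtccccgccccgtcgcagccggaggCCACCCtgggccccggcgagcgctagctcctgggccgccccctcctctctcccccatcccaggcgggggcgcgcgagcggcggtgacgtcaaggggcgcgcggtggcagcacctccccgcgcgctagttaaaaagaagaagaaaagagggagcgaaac
Ptch1, chr13:63565736-63565985, minus strand: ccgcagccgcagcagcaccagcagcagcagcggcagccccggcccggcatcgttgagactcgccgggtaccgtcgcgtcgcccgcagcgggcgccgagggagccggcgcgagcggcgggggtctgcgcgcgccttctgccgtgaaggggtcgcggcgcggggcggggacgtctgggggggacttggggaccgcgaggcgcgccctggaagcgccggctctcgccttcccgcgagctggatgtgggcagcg
The full Gli motif GACCACCCA was in none of the 7 windows on either strand, against 0.225% of the 32851 windows of the same length in the table. CCACCC, which is part of that motif, occurred once in the Hhip window and not in that of Ptch1, and 28.1% of all windows held it. On either strand it was also in the windows of Smo, Gli2 and Gli3. The RefSeq start of Ptch1 lies inside the span that GENCODE gives the gene, so other starts are not covered by this window. The TCF/LEF motifs CTTTGAT and CTTTGTT, recognised by the partners of β-catenin, were in none of the 7 windows on either strand, against 3.21% and 5.03% of all windows. With shares this low, no match in 7 windows is the likely outcome for these motifs and the full Gli motif, so nothing is read from it. Sequence beyond the 250 bases was not searched. GC content was 76.0% in the Hhip window and 78.4% in the Ptch1 window.

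Levels between genes were compared per length, as CPM per kilobase of annotated exon (GENCODE M21). In parental cells with DMSO the order was Gli2 at 23.7 ± 1.42, Gli1 at 18.7 ± 0.36, Ptch1 at 8.88 ± 0.00927, Smo at 7.98 ± 0.296 and Sufu at 4.57 ± 0.212 CPM per kilobase (SD, n = 2). Boc at 0.886 ± 0.00122, Gli3 at 0.649 ± 0.0187, Hhip at 0.599 ± 0.0448 and Gas1 at 0.257 ± 0.00618 followed, and Gli3 and Hhip were within about 1 SD of each other. Gli1, Gli2 and the transducer gene Smo were thus well above the co-receptor genes, while Gli3 stood between Boc and Gas1. The same order of the first 5 genes held in both knock-out groups, with Gli2 at 25.3 ± 0.881, Gli1 at 20.6 ± 0.449 and Ptch1 at 9.53 ± 0.0358 CPM per kilobase with CHIR99021 and 27.7 ± 1.09, 22.8 ± 0.11 and 11.7 ± 0.242 with DMSO (SD, n = 2). In parental cells with CHIR99021 Ptch1, at 4.13 ± 0.128 CPM per kilobase, stood below Smo at 7.11 ± 0.198 and Sufu at 4.61 ± 0.0424. Hhip, at 0.104 ± 0.0033, was the lowest of the 9, within 1 SD of Gas1 at 0.16 ± 0.0665. Lengths were unions of all annotated exons, 9076 bases for Hhip and 2961 for Gas1, and the order depends on them. Without length Gas1 was the lower, at 0.474 CPM against 0.941 for Hhip.

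**Figure D1:**
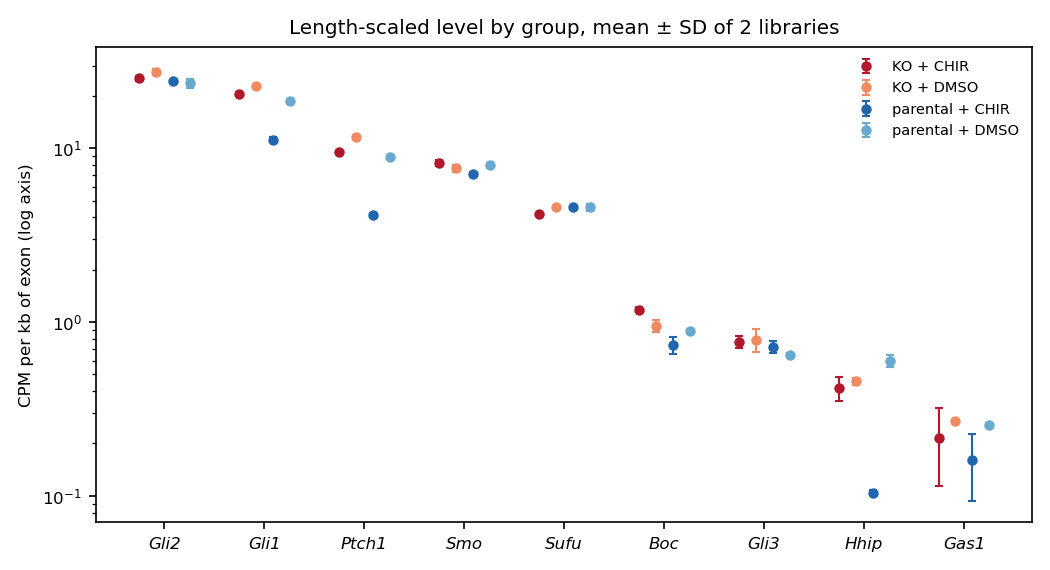
Level of the 9 Hedgehog genes as CPM per kilobase of exon on a log axis, mean ± SD of 2 libraries, in β-catenin knock-out (KO) and parental cells with CHIR99021 or DMSO. Hhip, Ptch1 and Gli1 are lowest in parental cells with CHIR99021, at 0.104, 4.13 and 11.2 CPM per kilobase. By group mean so are Smo, Boc and Gas1, at 7.11, 0.734 and 0.16.

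Hhip, a membrane-anchored protein that binds Hedgehog ligands and keeps them from Patched (ENSMUSG00000064325, chromosome 8, 79965851 to 80058006, minus strand, GRCm38), had 118 and 87 counts in knock-out cells with CHIR99021 and 110 and 112 in knock-out cells with DMSO. It had 24 and 23 counts in parental cells with CHIR99021 and 120 and 138 in parental cells with DMSO. The parental libraries with CHIR99021 lay apart below the other 6. On the CPM scale the values were 4.19 and 3.36, then 3.99 and 4.27, in the knock-out with CHIR99021 and with DMSO, and 0.919 and 0.962, then 5.15 and 5.73, in parental cells with CHIR99021 and with DMSO. Because counts were few, ratios of summed counts are given. For the knock-out an exact 95% interval of the binomial split is added, which covers counting error only. In knock-out cells, whose libraries had no part in the choice of Hhip, the ratio of CHIR99021 to DMSO was 0.919 (0.756 to 1.12), and the log2 fold change of -0.13 ± 0.16 (SE) did not pass edgeR's quasi-likelihood test (adjusted p = 0.705). In parental cells the ratio of CHIR99021 to DMSO was 0.173 and the fitted log2 fold change -2.53, the value for which Hhip was picked. The ratio of knock-out to parental cells was 4.04 with CHIR99021 and 0.758 with DMSO. Both ratios use the parental libraries on which Hhip was picked, so they are a description without a test or interval.

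**Figure D2:**
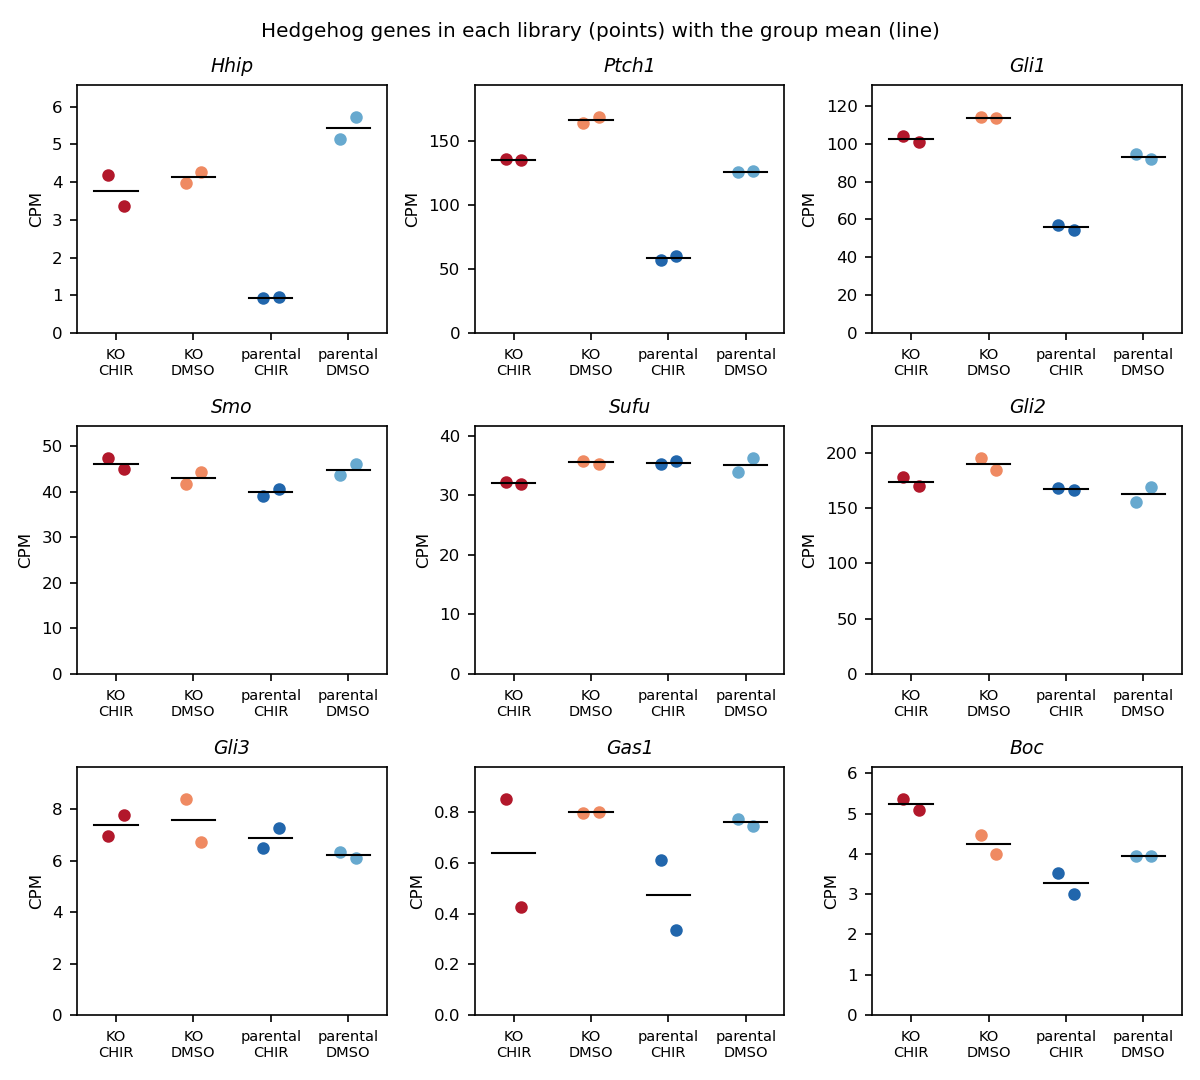
CPM of each Hedgehog gene in every library (points, 2 per group) with the group mean (line), in knock-out (KO) and parental cells with CHIR99021 (CHIR) or DMSO; each vertical axis starts at 0. The parental libraries with CHIR99021 are the lowest for Hhip, Ptch1, Gli1, Smo and Boc, while Gli2 spans 156 to 195 CPM over all 8 libraries.

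Ptch1, the gene of the Hedgehog receptor Patched 1 (ENSMUSG00000021466, chromosome 13, 63508328 to 63573598, minus strand), was well covered, with 1431 to 4516 counts per library. It lay at 135.6 and 134.9 CPM in knock-out cells with CHIR99021 and at 164 and 169 CPM in knock-out cells with DMSO. In parental cells it lay at 57.3 and 59.8 CPM with CHIR99021 and at 126 in both libraries with DMSO. The highest group was the knock-out with DMSO and the lowest was parental cells with CHIR99021. Gli1, the Gli factor that acts as an activator and is itself a target of the pathway (ENSMUSG00000025407, chromosome 10, 127329882 to 127341974, minus strand), had 104 and 101 CPM in knock-out cells with CHIR99021 and 114 and 113 CPM in knock-out cells with DMSO. In parental cells it had 57.3 and 54.7 CPM with CHIR99021 and 94.5 and 92.0 CPM with DMSO. The order of the groups was the same as for Ptch1. The annotated span of Gli1 overlaps Arhgap9, a tested gene on the opposite strand, and with the strand setting of the counting not given in the sources used here, reads may be shared between them. No other member overlaps a tested gene.

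The first comparison asked what CHIR99021 does to the pathway's genes without β-catenin. In knock-out cells Ptch1 fell by 0.30 on the log2 scale (SE 0.04, edgeR adjusted p = 0.0018), to 135 ± 0.507 CPM with CHIR99021, against 166 ± 3.44 CPM with DMSO (SD, n = 2 each). It was the only 1 of the 9 to pass, in a comparison where 7.06% of all genes were called and 4.18% were called lower. Gli1 at -0.15 ± 0.04 did not pass (adjusted p = 0.0617), nor did Sufu at -0.15 ± 0.06 (0.137) and Gli2 at -0.13 ± 0.05 (0.147), although the CHIR99021 and DMSO libraries of these 3 genes did not overlap. In all, 6 of the 9 genes had no overlap, Ptch1, Gli1, Gli2 and Sufu on the lower side and Smo and Boc on the higher side, and this was so for 52.3% of all genes tested, so nothing is read from it. Smo had a log2 fold change of 0.10 ± 0.06, Boc of 0.30 ± 0.14, Gli3 of -0.04 ± 0.13 and Gas1 of -0.31 ± 0.42 (adjusted p 0.224 to 0.892). The median over the 9 genes was -0.13, and over all genes tested it was -0.0028. The call of Ptch1 held in all 14 alternatives, with adjusted p up to 0.026. Among the neural markers Nes and Pax6 also fell in this comparison, by 0.41 and 1.21 on the log2 scale (edgeR adjusted p = 0.0206 and 0.0491). Sox1 of the same list did not, at 0.06 (0.795). None of the 6 stem cell markers passed (0.054 to 0.967). The part of these markers in the result was not tested.

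The same contrast in parental cells is given as a description. Beside Hhip, Ptch1 had a log2 fold change of -1.11 ± 0.04 (SE) with CHIR99021, at 58.6 ± 1.81 CPM with CHIR99021 and 126 ± 0.131 CPM with DMSO (SD, n = 2 each). Gli1 had -0.74 ± 0.04, at 56.0 ± 1.82 CPM with CHIR99021 and 93.3 ± 1.80 CPM with DMSO (SD, n = 2 each). These 3 of the 9 genes were past the threshold, all lower, where 19.4% of all genes were past it and 10.3% were lower; since the contrast chose Hhip, nothing is read from that count. The genes that carry the signal between receptor and target differed less: Smo by -0.17 ± 0.06, Sufu by 0.01 ± 0.06, Gli2 by 0.04 ± 0.05 and Gli3 by 0.15 ± 0.14 on the log2 scale. The co-receptor genes had log2 fold changes of -0.27 ± 0.15 for Boc and -0.66 ± 0.45 for Gas1. Gas1 had 24 counts in all with CHIR99021 and 36 with DMSO. Of the stem cell markers Klf4 was past the threshold on the higher side, at 0.25 on the log2 scale. Sox2, Nanog, Zfp42 and Pou5f1 were past it on the lower side, at -0.38, -0.19, -0.16 and -0.13, and Esrrb was not past it. Markers of other cells were past the threshold in both directions here. Sox7 of the endoderm list stood at -1.57 on the log2 scale and Pdgfra of the same list at 0.84, while Gata4 at -0.09 and Gata6 at 0.70 were not past it. The neural markers Sox1, Pax6 and Nes stood at -0.51, -1.91 and -1.28, and the streak markers T and Eomes, opposite in sign to Hhip, Ptch1 and Gli1, at 5.05 and 4.36. Thy1 of the fibroblast list stood at 0.66, past the threshold, and Col1a1 of that list at 0.06, not past it. The part of all these markers in the values was not tested. The median over the 9 genes was -0.27, and over all genes tested it was 0.0040.

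**Figure D3:**
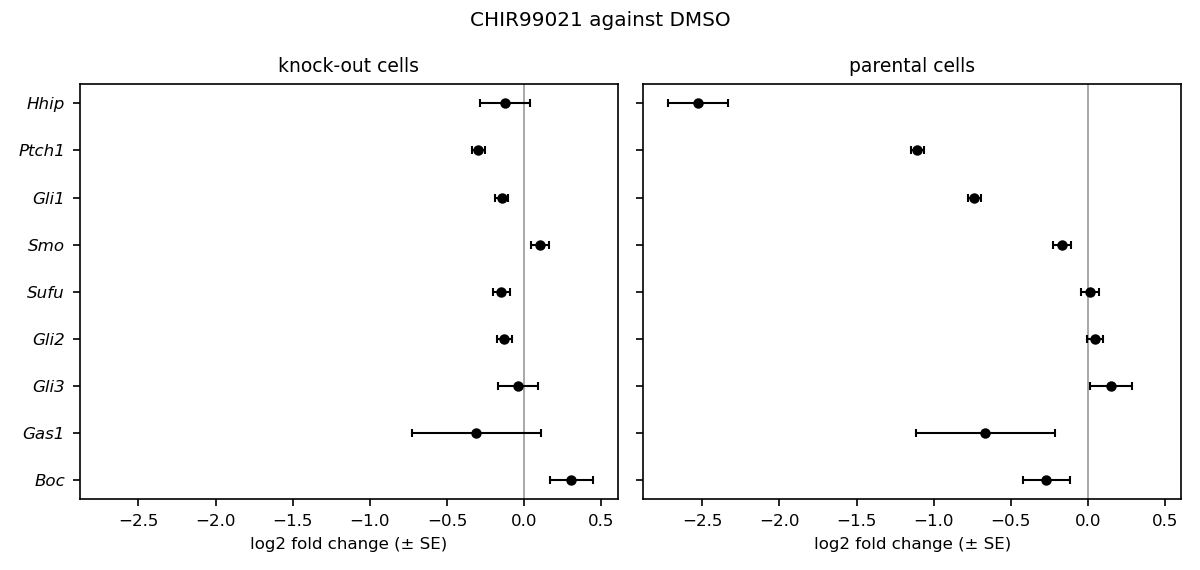
Log2 fold change of CHIR99021 against DMSO (± SE from the edgeR fit) for the 9 Hedgehog genes in knock-out cells (left) and parental cells (right). In parental cells Hhip, Ptch1 and Gli1 stand at -2.53, -1.11 and -0.74, and in knock-out cells at -0.13, -0.30 and -0.15.

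The interaction asked whether the response to CHIR99021 differed between the lines, as the log2 fold change in knock-out cells minus that in parental cells. It was 0.81 ± 0.06 (SE) for Ptch1 (edgeR adjusted p = 1.22e-05) and 0.59 ± 0.06 for Gli1 (adjusted p = 0.000205), so the fold change of both was less negative in the knock-out. These were 2 of the 8 genes tested here, both higher, where 6.13% of all genes were called and 3.22% were called higher. Both calls held in all 13 alternatives run for this comparison, with adjusted p up to 0.000186 for Ptch1 and 0.00195 for Gli1. The interaction includes the parental contrast on which Hhip was chosen. The other 8 genes were listed with earlier results of these data known, so their tests here are not independent of that choice. For Hhip the difference was 2.40 ± 0.26, given without a test. Smo at 0.27 ± 0.08 (adjusted p = 0.0817), Boc at 0.57 ± 0.21 (0.141), Gli2 at -0.17 ± 0.07 (0.194) and Sufu at -0.16 ± 0.08 (0.281) did not pass, and neither did Gli3 at -0.19 ± 0.19 and Gas1 at 0.35 ± 0.61 (0.637 and 0.808). Smo passed with no filter on low counts (adjusted p = 0.0471). Of the stem cell markers Sox2 was at 0.26 and Klf4 at -0.32 in the interaction (edgeR adjusted p = 0.024 and 0.00545), and the other 4 did not pass. Markers of other cells were called in both directions in the interaction. Sox7, Nes and Sox1 were at 1.17, 0.87 and 0.57 (edgeR adjusted p = 0.00158, 0.002 and 0.0434). T and Eomes were at -6.60 and -4.73 (0.000248 and 1.26e-06). The other tested markers of those cells did not pass, and the part of the markers was not tested.

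The third comparison set the lines against each other with DMSO alone. Ptch1 was higher in the knock-out by 0.40 ± 0.04 on the log2 scale (SE, edgeR adjusted p = 0.000353), and Gli1 by 0.29 ± 0.04 (adjusted p = 0.00292). Gli2, the main activator among the full-length Gli proteins, was higher by 0.23 ± 0.05 (adjusted p = 0.0222), with 195 and 185 CPM in knock-out cells and 156 and 169 CPM in parental cells. These were 3 of the 8 genes tested, all higher, where 6.75% of all genes were called and 3.13% were called higher. The call of Gli2 was lost without knock-out DMSO replicate 1 (adjusted p = 0.131), without parental DMSO replicate 1 (0.188) and with the compared groups alone (0.0528), while those of Ptch1 and Gli1 held in all 14 alternatives, with adjusted p up to 0.00588 and 0.0336. Gli3, which mainly yields a repressor, had 232 and 177 counts in knock-out cells and 148 and 147 in parental cells, a log2 fold change of 0.29 ± 0.13 (adjusted p = 0.251). Smo at -0.06 ± 0.06, Sufu at 0.02 ± 0.06, Boc at 0.10 ± 0.15 and Gas1 at 0.07 ± 0.42 did not pass (adjusted p 0.615 to 0.949). The endoderm markers Gata4 and Pdgfra, at 1.08 and 0.92 on the log2 scale, were also higher in the knock-out with DMSO (edgeR adjusted p = 0.00171 and 0.0463). So was the fibroblast marker Thy1, at 0.87 (0.00292). Of the same lists Gata6 at 0.96, Sox7 at -0.21 and Col1a1 at -0.05 did not pass (0.181, 0.295 and 0.951). The stem cell markers Nanog and Klf4 were lower in the knock-out, at -0.20 and -0.16 (edgeR adjusted p = 0.00753 and 0.0374), and the other 4 did not pass. The part of these markers was not tested. The median over the 8 genes was 0.16, and over all genes tested it was 0.0030.

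With CHIR99021 in both lines the knock-out was above parental cells for the same 2 readout genes and for 2 genes of signal reception. Ptch1 was higher by 1.21 ± 0.04 on the log2 scale (SE, edgeR adjusted p = 1.05e-08) and Gli1 by 0.88 ± 0.04 (adjusted p = 1.72e-07). Boc, a co-receptor that presents ligand to Patched, had 151 and 132 counts in knock-out cells and 92 and 72 in parental cells, a log2 fold change of 0.68 ± 0.15 (adjusted p = 0.00645). Smo, the transducer that Patched holds in check, was higher by 0.21 ± 0.06 (adjusted p = 0.0222), at 47.5 and 44.9 CPM in knock-out cells and 39.2 and 40.7 CPM in parental cells. These were 4 of the 8 genes tested, all higher, where 23.7% of all genes were called and 11.2% were called higher. DESeq2 called 2 of them, with adjusted p = 0.0598 for Boc and 0.0849 for Smo. Boc also missed the threshold without parental CHIR99021 replicate 2 (adjusted p = 0.0531), and Smo without knock-out CHIR99021 replicate 1 (0.154) and parental CHIR99021 replicate 1 (0.107).

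Sufu, the cytoplasmic inhibitor that holds Gli proteins, was at 32.2 and 31.9 CPM in knock-out cells and 35.2 and 35.7 CPM in parental cells with CHIR99021. Its log2 fold change of -0.15 ± 0.06 did not pass (SE, edgeR adjusted p = 0.0849). Gli2 at 0.05 ± 0.05, Gli3 at 0.10 ± 0.13 and Gas1 at 0.43 ± 0.45 did not pass (adjusted p 0.487 to 0.641). Gas1, a co-receptor anchored to the membrane by a lipid, had 8 to 24 counts in any library, too few for a change of this size to be detectable. The median over the 8 genes was 0.32, and over all genes tested it was 0.0007. Of the stem cell markers Sox2 was higher in the knock-out, at 0.14, and Klf4 and Nanog were lower, at -0.48 and -0.12 (edgeR adjusted p 8.45e-06 to 0.0295). The other 3 stem cell markers did not pass. Markers of other cells were called in both directions with CHIR99021. Gata4, Sox7, Nes, Sox1 and Thy1 were higher in the knock-out, at 1.24, 0.96, 0.72, 0.32 and 0.38 (edgeR adjusted p 9.79e-05 to 0.0467). T and Eomes were lower, at -6.61 and -4.82 (3.89e-07 and 8.56e-10). The other tested markers of those cells did not pass, and the part of the markers was not tested. The comparisons with CHIR99021 and with DMSO use libraries of the CHIR99021 contrasts as well, so their values are not separate evidence.

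**Figure D4:**
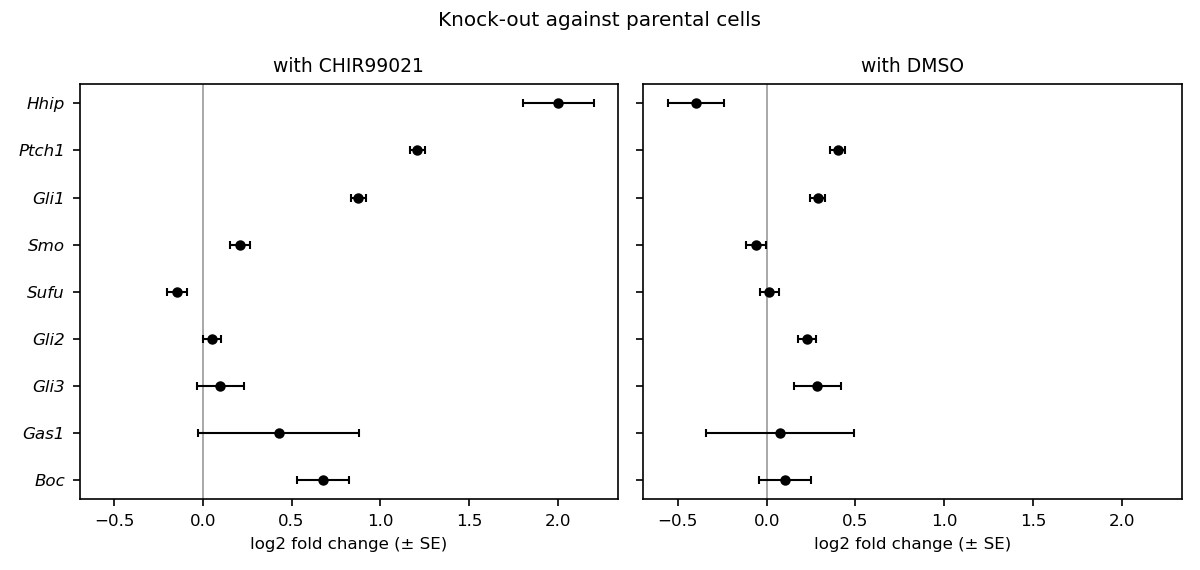
Log2 fold change of knock-out against parental cells (± SE from the edgeR fit) for the 9 Hedgehog genes with CHIR99021 (left) and with DMSO (right). Ptch1 and Gli1 are higher in the knock-out in both, by 1.21 and 0.88 with CHIR99021 and by 0.40 and 0.29 with DMSO, while Hhip is at 2.003 with CHIR99021 and -0.40 with DMSO.

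The remaining genes of the pathway were taken from 6 lists with 51 genes, of which 43 had enough counts to be tested. The ligand genes were barely detected. Shh had 5 and 1 counts in knock-out cells with CHIR99021, 3 and 1 in knock-out cells with DMSO, 0 and 1 in parental cells with CHIR99021 and 3 and 1 in parental cells with DMSO, and was not tested. Ihh had 8 to 28 and Dhh 7 to 19 counts in any library, and neither passed in any comparison (edgeR adjusted p 0.269 to 0.943).

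Of 3 other receptor and co-receptor genes, 1 fell with CHIR99021 in the knock-out, where 4.18% of all genes fell. Lrp2, an endocytic receptor that can bind Sonic hedgehog, fell by 0.72 on the log2 scale (SE 0.06, edgeR adjusted p = 0.000193). It lay at 41.5 and 38.6 CPM in knock-out cells with CHIR99021 and 67.4 and 64.4 with DMSO, and at 8.12 and 8.99 CPM in parental cells with CHIR99021 and 43.7 and 42.9 with DMSO. Parental cells with CHIR99021 were the lowest group and the knock-out with DMSO the highest, and the other two lay between them. In the interaction Lrp2 was at 1.62 ± 0.09 (SE, adjusted p = 4.02e-06), so it was lowered less in the knock-out. It was also higher in knock-out than in parental cells, by 0.60 ± 0.06 with DMSO (adjusted p = 0.0003) and by 2.23 ± 0.07 with CHIR99021 (adjusted p = 6.21e-09). Gpc3, a glypican that binds ligand, was lower in the knock-out with DMSO by 0.62 on the log2 scale (adjusted p = 0.0166), a call lost without either knock-out DMSO library (0.0835 and 0.0741), without parental DMSO replicate 2 (0.12) and with DESeq2 (0.0509). In parental cells Lrp2 and Gpc3 were past the threshold with CHIR99021, both lower, and Cdon, the relative of Boc, passed in no comparison.

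Of 18 tested genes that act between Smoothened and Gli, 1 rose and 1 fell with CHIR99021 in the knock-out, 11.1% against 7.06% of all genes. None of the 18 passed in the interaction, against 6.13% of all genes, and there 39 of the 43 genes of all lists did not pass. Evc, a ciliary partner of Smoothened, fell by 0.34 (SE 0.06, edgeR adjusted p = 0.00692; 0.0645 without knock-out CHIR99021 replicate 1). Gpr161, a ciliary receptor that restrains the pathway, rose by 0.53 ± 0.13 (adjusted p = 0.0363), a call lost without knock-out CHIR99021 replicate 1 (0.119) or 2 (0.195), without knock-out DMSO replicate 1 (0.25), with DESeq2 (0.142) and with the compared groups alone (0.0538). Between the lines with CHIR99021, 4 of the 18 were higher in the knock-out and none lower, 22.2% against 23.7% of all genes called (11.2% higher), so the share was near that of all genes. They were Evc by 0.37 ± 0.06 (adjusted p = 0.00113), its partner Evc2 by 0.27 ± 0.06 (0.00633), the casein kinase gene Csnk1e by 0.20 ± 0.04 (0.00692) and Gpr161 by 0.53 ± 0.13 (0.0134). Of these Csnk1e was lost without knock-out CHIR99021 replicate 1 (0.0676) and parental CHIR99021 replicate 2 (0.0628), and Gpr161 without knock-out CHIR99021 replicate 2 (0.0867), without parental CHIR99021 replicate 1 (0.0938) and with DESeq2 (0.0836). With DMSO 2 of the 18 were called, 11.1% against 6.75% of all genes. Csnk1e was higher by 0.17 ± 0.04 (adjusted p = 0.0428) and Csnk1a1 lower by 0.15 on the log2 scale (adjusted p = 0.0417), and these calls were lost in 10 and 7 of 14 alternatives, with adjusted p up to 0.181 and 0.195. In parental cells with CHIR99021 Evc and Spop were past the threshold on the lower side and Prkar1a on the higher side. None of the 9 genes of ciliary transport, such as Ift88 and Kif3a, passed in any of the 5 comparisons (adjusted p 0.0511 to 0.976), in which 6.13% to 23.7% of all genes were called.

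Among the 5 genes of ligand processing and release, Scube3, which encodes a secreted relative of the ligand-releasing Scube2, was higher with CHIR99021 in the knock-out by 0.46 ± 0.11 (edgeR adjusted p = 0.0313), 1 of 5 where 2.88% of all genes were called higher. It was also higher in the knock-out than in parental cells by 0.59 ± 0.12 with DMSO (adjusted p = 0.0158) and by 0.51 ± 0.11 with CHIR99021 (0.00738). The first call was lost without any of the 4 knock-out libraries in turn and with DESeq2 (adjusted p 0.0526 to 0.219), the second without knock-out DMSO replicate 2 (0.0903) or parental DMSO replicate 2 (0.121), and the third without knock-out CHIR99021 replicate 1 (0.055) or parental CHIR99021 replicate 2 (0.0649). Disp1, needed to release lipid-modified ligand, was higher in the knock-out with DMSO by 0.31 ± 0.08 (adjusted p = 0.0405), a call lost in 11 of 14 alternatives. Scube2 was lower in the knock-out with CHIR99021 by 1.13 on the log2 scale (adjusted p = 0.0282), lost without either knock-out CHIR99021 library (0.118 and 0.112), without parental CHIR99021 replicate 2 (0.161) and with DESeq2 (0.0732). In parental cells with CHIR99021 Scube3 was the member of this list past the threshold, on the higher side.

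Of 13 listed genes that answer to Hedgehog in other tissues, 6 had enough counts to be tested. The 7 others mark responses in mesoderm, floor plate and ventral neural tube. Of these Foxf1, Nkx2-2, Nkx6-1 and Nkx3-2 had at most 3 counts summed over a group, Foxa2 had 6 to 7, Olig2 had 2 to 10 and Foxc2 had 11 to 17. In the knock-out 3 of the 6 fell with CHIR99021 and none rose, where 4.18% of all genes fell. Mycn fell by 0.97 (SE 0.05), Ccnd2 by 1.79 (SE 0.10) and Ccnd1 by 0.38 (SE 0.04) on the log2 scale (edgeR adjusted p 1.92e-05 to 0.000528). The 3 are regulators of growth and of entry into the cell cycle that also answer to other pathways. In the interaction Mycn, at 0.42 ± 0.08 (adjusted p = 0.00926), had the sign of Ptch1 and Gli1. Ccnd1 at -0.26 ± 0.06 (0.0186) and Ccnd2 at -0.61 ± 0.14 (0.0242) had the opposite sign. Both cyclin calls were lost without single libraries: Ccnd1 without knock-out CHIR99021 replicate 1, knock-out DMSO replicate 1, parental CHIR99021 replicate 1 or either parental DMSO library (0.0532 to 0.0797), and Ccnd2 without either knock-out CHIR99021 library, knock-out DMSO replicate 1, parental CHIR99021 replicate 1 or parental DMSO replicate 2 (0.0718 to 0.113) and with DESeq2 (0.208). Between the lines with CHIR99021 Mycn was higher in the knock-out by 0.29 ± 0.06 (adjusted p = 0.00458), and Ccnd1 and Ccnd2 were lower by 0.37 and 0.64 (5.88e-05 and 0.00134). In parental cells the same 3 genes were past the threshold with CHIR99021, all lower. With DMSO none of the 6 passed between the lines (adjusted p 0.121 to 0.866).

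**Figure D5:**
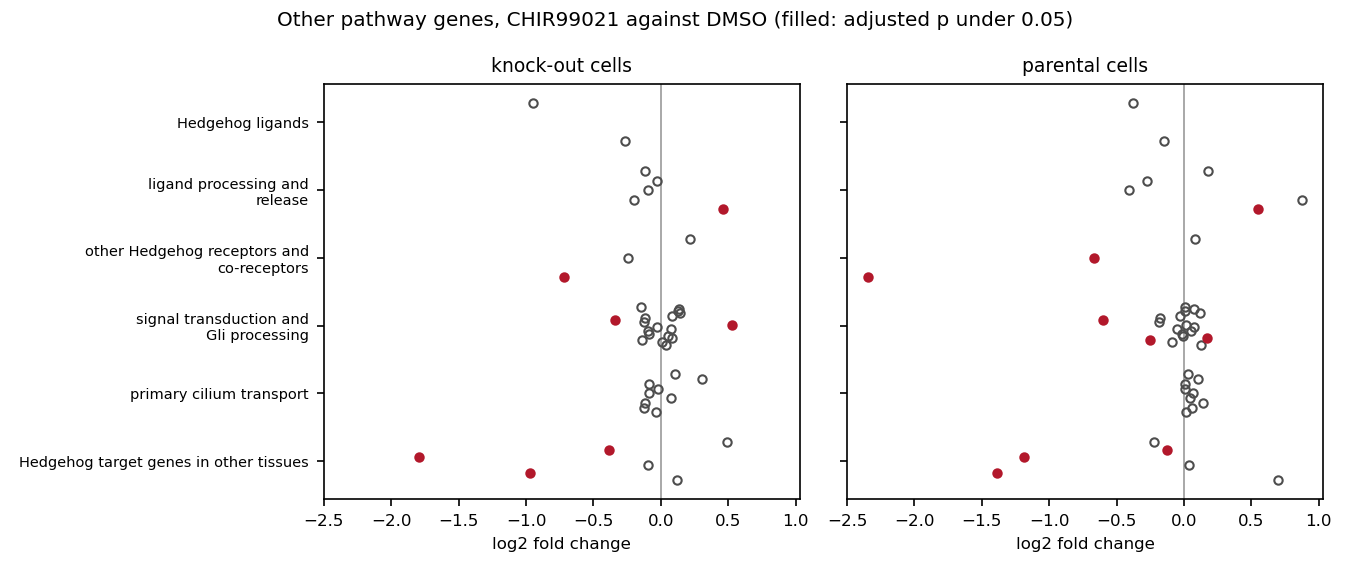
Log2 fold change of CHIR99021 against DMSO for the 43 tested genes of the 6 pathway lists, 1 point per gene, in knock-out cells (left) and parental cells (right); filled points have an adjusted p under 0.05. The lowest points are Ccnd2 at -1.79 in knock-out cells and Lrp2 at -2.34 in parental cells. No ciliary gene is filled in either, and the one furthest from 0 is Dync2h1 at 0.30 in knock-out cells.

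Over all 43 genes of the lists, 2 rose and 5 fell with CHIR99021 in the knock-out, 16.3% against 7.06% of all genes (2.88% higher and 4.18% lower), with a median of -0.08 against -0.0028. Between the lines 4 were higher and 2 lower with DMSO (14% against 6.75%, of which 3.13% higher and 3.62% lower; median 0.02 against 0.0030), and 7 were higher and 3 lower with CHIR99021 (23.3% against 23.7%, of which 11.2% higher and 12.5% lower; median 0.01 against 0.0007). In the interaction 2 were higher and 2 lower (9.3% against 6.13%, of which 3.22% higher and 2.91% lower; median 0.03 against -0.0012). In parental cells 2 were higher and 7 lower with CHIR99021 (20.9% against 19.4%, of which 9.1% higher and 10.3% lower; median 0.01 against 0.0040). The lists were written with earlier results of these data known, so their counts are not independent of them.

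The genes whose pattern over the 8 libraries was most like that of Hhip, by Pearson's r of log2 CPM, were Sfrp1 (0.997), a secreted Wnt modulator, Rnf125 (0.994), Cradd (0.993), Rnf213 (0.993) and Cdyl (0.992). Without the 2 parental libraries with CHIR99021, which lie apart from the rest for all of them, r over the other 6 libraries was 0.935, 0.889, 0.923, 0.955 and 0.881. Sfrp1 lay at 174 ± 1.99 CPM in knock-out cells with CHIR99021 and 182 ± 1.70 with DMSO, and at 106 ± 0.342 CPM in parental cells with CHIR99021 and 198 ± 4.003 with DMSO (SD, n = 2 each). Within the pathway, r with Hhip over the 8 libraries was 0.916 for Ptch1, 0.903 for Gli1 and 0.806 for Smo, and it was 0.673 for Gas1, 0.635 for Boc, 0.191 for Gli2, -0.09 for Gli3 and -0.20 for Sufu. Over the 6 libraries without parental cells with CHIR99021, the group on which Hhip was chosen, r was -0.44 for Ptch1, -0.61 for Gli1, 0.169 for Smo, 0.572 for Gas1, -0.72 for Boc, -0.42 for Gli2, -0.84 for Gli3 and 0.601 for Sufu. The positive r of Ptch1, Gli1, Gli2 and Boc over the 8 libraries thus rests on the 2 left out. These values describe 8 libraries in 4 groups that share their lines and treatments, and genes were ranked over the same libraries.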

How the data were processed

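Estimated counts were deposited by the authors, 1 column per library; per the submitters' processing notes they come from kallisto with build GRCm38.p4, and its version, the transcript set and the strand setting are not given in the sources used here. Libraries were made with a stranded mRNA kit per the labels' protocols. Columns were matched to samples by title.

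Counts were rounded and filtered with edgeR 4.0.16 filterByExpr (at least 10 counts, 15 in total), which kept 17739 of 48440 genes with 99.905% to 99.918% of the counts. Library sizes were scaled by trimmed means of M values (0.986 to 1.018). The quasi-likelihood fit used the 8 libraries together, each group having its own mean (4 residual degrees of freedom), with 2-sided F tests and Benjamini-Hochberg adjustment over all genes, called under 0.05. Standard errors (SE) were derived from the F statistic, as the size of the log2 fold change over √F. Replicates differed by 3.23 to 4.73 times the counting variance. The procedure was tested on simulated data.

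Members and lists were chosen with earlier results of these data known. Named genes are the 9 members, called list genes (up to 4 per list and comparison by smallest adjusted p), the ligand genes, and the 5 genes with the highest r to Hhip (mean of at least 1 CPM, no clone names). Alternatives were DESeq2 1.42.0, relative log expression factors, other filters, the compared groups alone, a replicate block and leaving out each library; for list genes they were added after seeing the data. A listed pathway gene is not reported here and was left out of the list counts.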

Additional observations from a re-analysis of the deposited data

Results flagged for a closer look

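The response to CHIR99021 differed between the lines for Ptch1 and Gli1 by a test of the difference itself. That difference includes the parental contrast on which Hhip was chosen. The members were also listed with earlier results of these data known, so the test is not independent of the choice. For Ptch1 the log2 fold change in knock-out cells minus that in parental cells was 0.81 (edgeR adjusted p = 1.22e-05), with 135 ± 0.507 and 166 ± 3.44 CPM in knock-out cells with CHIR99021 and DMSO, and 58.6 ± 1.81 and 126 ± 0.131 CPM in parental cells with CHIR99021 and DMSO (SD, n = 2 each). For Gli1 it was 0.59 (edgeR adjusted p = 0.000205), with 103 ± 2.24 and 114 ± 0.552 CPM in knock-out cells and 56.0 ± 1.82 and 93.3 ± 1.80 CPM in parental cells, in the same order of treatments. In knock-out cells both libraries with CHIR99021 lay below both with DMSO for both genes. In that contrast the groups did not overlap for 52.3% of all genes tested, so nothing is read from that. The fall of Gli1 in knock-out cells did not pass (edgeR adjusted p = 0.0617). Markers of stem cells and of other cells also differed in their response, in both directions, and their part was not tested.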

How the results depend on the processing

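The count of genes called moved by over 1.5 times in some settings. With no filter on low counts it was 2167 for CHIR99021 in the knock-out, 2064 between the lines with DMSO and 1990 in the interaction. DESeq2 called 2205 for CHIR99021 in parental cells, 795 between the lines with DMSO and 2709 with CHIR99021, with 2 Hedgehog genes in the last. The compared groups alone gave 794 with DMSO. Leaving out each library gave 334 to 1285 genes for CHIR99021 in the knock-out, 2106 to 3557 in parental cells, 359 to 1104 and 2567 to 4414 between the lines with DMSO and CHIR99021, and 616 to 1191 in the interaction. The Hedgehog genes called were then 1, 3, 2 to 3, 3 to 4 and 2 in these comparisons. Some uncalled values changed sign without a library: in the knock-out Hhip ran from -0.30 to 0.021, Gli3 from -0.19 to 0.13 and Gas1 from -0.90 to 0.092; in parental cells, where no member was tested, Sufu ran from -0.033 to 0.061 and Gli2 from -0.016 to 0.106; between the lines Sufu ran from -0.031 to 0.064 with DMSO and Gas1 from -0.17 to 0.94 with CHIR99021; in the interaction Gas1 ran from -0.24 to 0.87. The cause was not tested. Of 444 values of the members that had an adjusted p under the alternatives, 427 kept their direction and side of the threshold, 8 changed direction, 8 lost the call and 1 gained it. For 6 more DESeq2 gave no adjusted p. Of 166 values given without a test, 164 kept their direction.

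A lone library left in a group was assumed to vary like the other groups. The labels give all groups replicate numbers 1 and 2. The differences between the replicates correlated only from -0.06 to 0.10 across pairs of groups. Such differences carry counting error, so these values cannot show whether the numbers pair the samples. With the replicate block 1313, 3434, 1225, 4296 and 1135 genes were called in the knock-out, in parental cells, between the lines with DMSO and with CHIR99021 and in the interaction, and 1, 3, 3, 4 and 2 Hedgehog genes. Depth limits Gas1, the ligand genes and, in parental cells with CHIR99021, Hhip.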
